A study of Homo sapiens with 36 samples.

Results

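The MHC class II genes of macrophages were followed through 24 h of inflammatory stimulation, together with CIITA, the coactivator that switches them on. Rows of the deposited expression table were matched by Entrez Gene identifier to 10 genes, which are CIITA, CD74, HLA-DRA, HLA-DRB1, HLA-DPA1, HLA-DPB1, HLA-DQA1, HLA-DMA, HLA-DMB and HLA-DOA. All 10 were found among 21599 rows. The table covered 36 RNA-seq libraries of THP-1, a human monocytic leukaemia cell line that becomes macrophage-like when treated with the phorbol ester PMA. Every group received 100 nM PMA for 72 h. The cells were then given either vehicle or a mixture of LPS (200 ng/mL) and interferon-gamma (200 ng/mL), called stimulated here, for 6, 12 or 24 h. Wild-type (WT) and IRG1-knockout (KO) cells were each studied in this way. IRG1 is now called ACOD1 and encodes the itaconate-producing enzyme of activated macrophages. This gave 12 groups with 3 libraries each. The labels do not say whether the KO is 1 clone or a mixed population, nor that replicates were separate cultures, so the p-values below measure only the spread between these libraries.

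MHC class II molecules present peptides from the endosomal pathway to CD4+ T cells. Each surface molecule is a pair of an alpha and a beta chain (HLA-DR, HLA-DP or HLA-DQ) that is assembled on the invariant chain CD74 and loaded with peptide in the endosome by HLA-DM, whose action HLA-DO holds back. Interferon-gamma acts through JAK kinases and IRF1 to induce CIITA, which binds no DNA itself and is recruited by RFX and NF-Y factors sitting on the X and Y boxes of class II promoters.

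Promoter windows were available in RefSeq (GRCh38.p14) for 8 of the 10 genes, running from 250 bases before to 50 bases after the annotated start, with a pair of windows for HLA-DPA1. Both strands were searched for the letters AGNNACNGA, taken here as a core of the X box, and for ATTGG, the core of the Y box, and the 2 motifs share no position. The 56-base stretches below are those of the 6 members with the X letters, shown because CIITA is recruited through factors that bind such boxes. Capitals mark the X letters and, where it follows on the same strand with 10 to 30 bases between, the Y letters.
HLA-DRB1: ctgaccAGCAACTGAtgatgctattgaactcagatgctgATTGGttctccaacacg
HLA-DQA1: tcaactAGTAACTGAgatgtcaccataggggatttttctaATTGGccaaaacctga
HLA-DMA: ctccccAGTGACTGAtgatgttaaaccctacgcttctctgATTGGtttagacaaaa
HLA-DOA: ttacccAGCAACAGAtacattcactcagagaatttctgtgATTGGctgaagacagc
HLA-DPA1: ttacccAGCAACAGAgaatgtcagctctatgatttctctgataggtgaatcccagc
HLA-DMB: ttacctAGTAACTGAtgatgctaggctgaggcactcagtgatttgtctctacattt
These stretches lie at chr6:32589878-32589933 (HLA-DRB1, minus strand), chr6:32637298-32637353 (HLA-DQA1, plus strand), chr6:32953161-32953216 (HLA-DMA, minus strand), chr6:33009643-33009698 (HLA-DOA, minus strand), chr6:33073699-33073754 (HLA-DPA1, minus strand) and chr6:32941067-32941122 (HLA-DMB, minus strand). Their X letters begin 79 to 113 bases before the annotated start.

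The spaced pair was found in 4 members, HLA-DRB1, HLA-DQA1, HLA-DMA and HLA-DOA, with 24 or 25 bases between X and Y. HLA-DPA1 and HLA-DMB carried the X letters in the same region without the Y letters behind them. The windows of CD74 and HLA-DPB1 held the Y letters alone. Among all 35116 windows of that length, 15.3% held the X letters, 34.6% the Y letters and 0.293% the spaced pair. The motifs and their spacing were chosen with these sequences in view, and a match is a description of letters, not a binding site.

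The libraries were checked first. Values are deposited log2 values whose normalization and offset are not given, and sequencing depth is unknown. They are not per length, so levels are compared between groups for 1 gene and not between genes. ACOD1 was between 0.00 and 0.86 in the vehicle libraries, between 9.20 and 12.76 in stimulated WT and between 7.98 and 10.22 in stimulated KO, so that its transcript was not absent in the KO. Every stimulated KO value lay below every stimulated WT value at 6 h and at 12 h, while the groups overlapped at 24 h. All 14 macrophage and monocyte markers were found in the table, with CD68 between 10.45 and 13.53, and 11 to 14 of them reached 10 on the linear scale in each group mean. No library was nearest to a group of the other treatment. In 2 libraries, stimulated KO replicate 2 at 6 h and stimulated WT replicate 3 at 24 h, the correlation with the mean of the other 2 libraries of their group was below 0.9 (0.849 and 0.883). Stimulated WT replicate 2 at 24 h was nearest to the stimulated KO group of that time, the 1 library nearest to the other genotype. Times were less well separated. Most vehicle libraries and several stimulated ones were nearest to another time of their genotype and treatment. No stimulated WT library of 24 h was nearest to its own group. The own-group mean left out the library itself and so rested on 2 libraries.

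**Figure D1:**
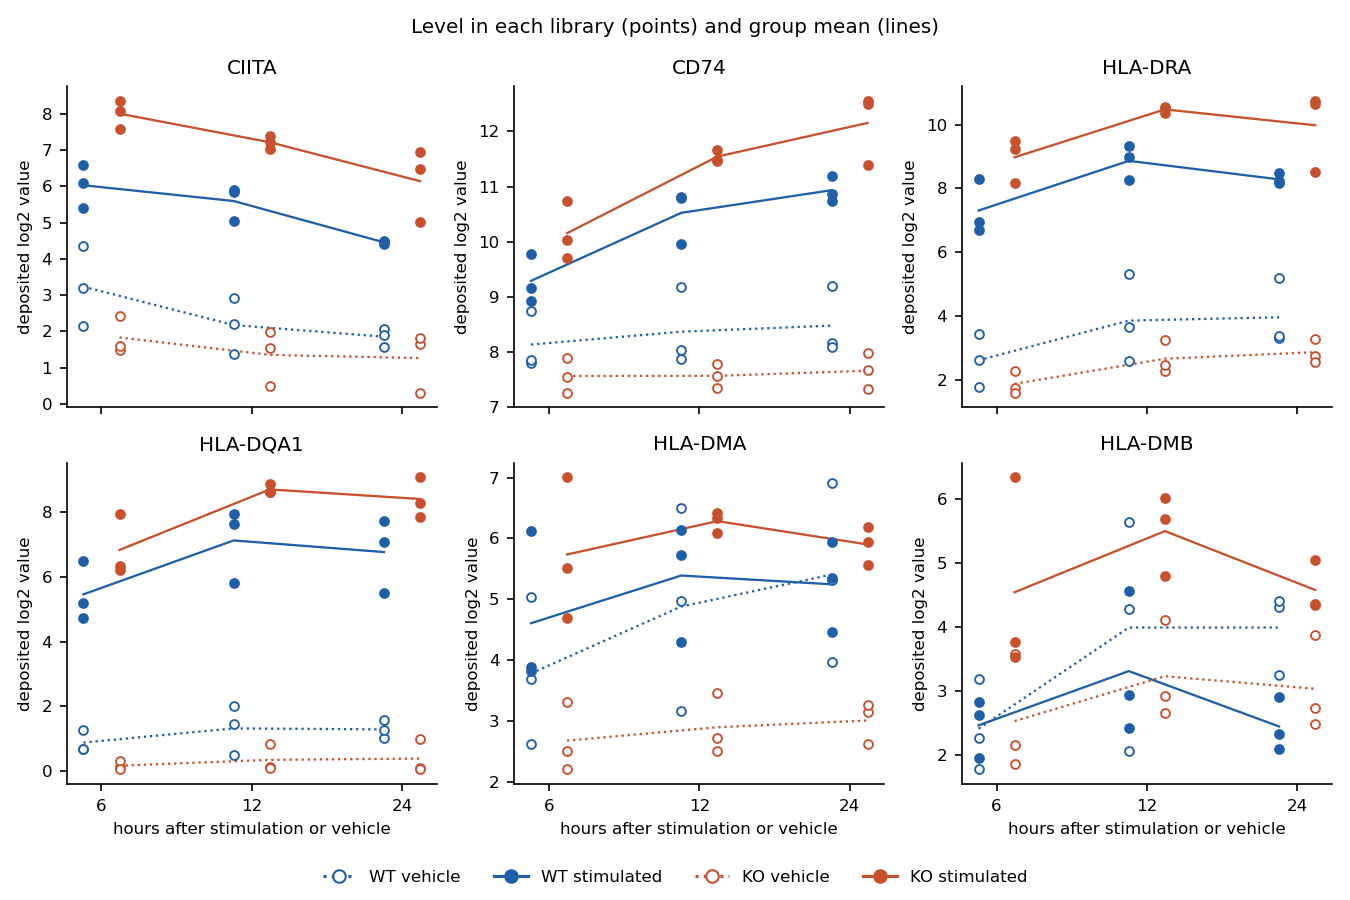
Deposited log2 value (vertical axis) of 6 members in each of the 36 libraries at 6, 12 and 24 h (horizontal axis). Points are single libraries, lines join group means, open points are vehicle, filled points stimulated, blue WT and orange KO. CIITA was highest at 6 h under stimulation in both genotypes, while CD74, HLA-DRA and HLA-DQA1 had their highest means at 12 or 24 h, and HLA-DMA and HLA-DMB of WT cells overlapped between treatments at all times except HLA-DMB at 24 h.

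CIITA, the coactivator of the class II promoters, was raised by stimulation at every time in both genotypes. In WT libraries it read 3.20, 2.14 and 4.35 with vehicle at 6 h and 6.09, 5.40 and 6.60 when stimulated. At 24 h the WT values were 2.07, 1.58 and 1.90 with vehicle and 4.49, 4.46 and 4.41 when stimulated. KO libraries ran from 1.49, 2.41 and 1.59 to 8.37, 7.57 and 8.08 at 6 h, and from 1.65, 1.82 and 0.31 to 6.94, 5.02 and 6.46 at 24 h. No stimulated library overlapped with the vehicle libraries of its genotype and time. The log2 rise in WT was 2.80 ± 0.53 (SE) at 6 h (limma adjusted p = 1.12e-04), 3.42 ± 0.53 at 12 h and 2.60 ± 0.53 at 24 h. In KO cells it was 6.17 ± 0.53 at 6 h (adjusted p = 1.93e-10), 5.87 ± 0.53 at 12 h and 4.88 ± 0.53 at 24 h. CIITA is among 5 members, with HLA-DPA1, HLA-DPB1, HLA-DQA1 and HLA-DOA, that passed the filter on low values only because of their stimulated libraries. Of its vehicle libraries 1 reached the filter value, and of those of the other members named 0 did. Such an entry favours a difference between treatments without forcing it in each genotype and time. In such bulk libraries fewer expressing cells and less RNA per cell cannot be told apart.

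The chains of the surface molecules and CD74 rose with stimulation in both genotypes at every time, except HLA-DRB1 in WT at 6 h. HLA-DRA, the alpha chain shared by all HLA-DR molecules, read 1.78, 2.62 and 3.44 in WT vehicle libraries at 6 h and 6.95, 6.68 and 8.29 in stimulated ones. The KO libraries at 6 h read 1.74, 2.28 and 1.59 with vehicle and 8.19, 9.50 and 9.25 when stimulated. At 12 h stimulated libraries read 8.25, 9.35 and 9.00 in WT and 10.38, 10.55 and 10.51 in KO. Stimulated and vehicle values were apart throughout, and the 3 KO values at 12 h lay above every WT value of that time. The log2 rise of HLA-DRA was 4.70 ± 0.60, 5.01 ± 0.60 and 4.33 ± 0.60 at 6, 12 and 24 h in WT, and 7.11 ± 0.60, 7.82 ± 0.60 and 7.12 ± 0.60 in KO, with adjusted p of at most 1.37e-06.

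CD74, the invariant chain, was present in every vehicle library, between 7.26 and 9.19. In WT it read 7.80, 7.85 and 8.73 with vehicle at 6 h and 8.93, 9.15 and 9.78 when stimulated, a rise of 1.16 ± 0.36 (2.23-fold, adjusted p = 0.0136). At 24 h the WT values were 8.16, 8.08 and 9.19 with vehicle and 10.75, 10.86 and 11.19 when stimulated, a rise of 2.46 ± 0.36 (5.50-fold, adjusted p = 3.37e-06). The groups were apart at both times. The WT rise at 6 h lost its call without vehicle replicate 1 (0.99, adjusted p = 0.0657), vehicle replicate 2 (1.02, adjusted p = 0.0601) or stimulated replicate 3 (0.91, adjusted p = 0.0850). In KO cells CD74 went from 7.67, 7.97 and 7.33 to 12.56, 11.40 and 12.51 at 24 h, a rise of 4.50 ± 0.36 (22.6-fold, adjusted p = 6.63e-11). KO replicate 2 at 24 h was the low one of its group for CD74, as it was for CIITA and for HLA-DRA (8.53 against 10.76 and 10.66).

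HLA-DQA1, an alpha chain of HLA-DQ, had the largest changes among the 10 genes at 12 and 24 h. Its vehicle libraries read between 0.50 and 2.02 in WT and between 0.06 and 1.00 in KO. At 12 h stimulated WT libraries read 5.79, 7.92 and 7.63 and stimulated KO libraries 8.62, 8.85 and 8.60. The log2 rise at 12 h was 5.79 ± 0.56 in WT (adjusted p = 3.45e-09) and 8.33 ± 0.56 in KO (adjusted p = 1.62e-12), with no overlap in either. The HLA-DP chains moved side by side: HLA-DPA1 rose in WT by 2.35, 3.29 and 3.38 at 6, 12 and 24 h, and its KO rises were 4.19, 5.60 and 5.83. HLA-DPB1 rose in WT by 2.94, 3.77 and 3.57 over the same times, and its KO rises were 4.82, 6.20 and 6.40. The annotated start of HLA-DPB1 lies between both starts of HLA-DPA1 on the opposite strand, and since the sources used here do not say that strand was used in counting, reads of these neighbours may not be fully separated.

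HLA-DRB1, the main beta chain of HLA-DR, was above the filter in all 18 vehicle libraries. Its vehicle libraries read between 4.52 and 6.77 in WT and between 3.97 and 5.23 in KO. The change in WT at 6 h was 1.20 ± 0.53 and missed the threshold (adjusted p = 0.0812), or passed it with the replicate number as a block (adjusted p = 0.0432), and was called without stimulated replicate 2 (1.55, adjusted p = 0.0447) or vehicle replicate 3 (1.60, adjusted p = 0.0379). It rose by 1.77 ± 0.53 at 12 h and by 1.78 ± 0.53 at 24 h in WT. The WT call of HLA-DRB1 was lost at 12 h without stimulated replicate 3 (1.43, adjusted p = 0.0636) or vehicle replicate 2 (1.28, adjusted p = 0.0868), and at 24 h without vehicle replicate 2 (1.34, adjusted p = 0.0654). In KO the rises of HLA-DRB1 were 2.52 ± 0.53, 3.29 ± 0.53 and 3.47 ± 0.53. Reads of HLA-DRB1 can be shared with near-identical HLA-DRB copies, so its level is uncertain.

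The genes for HLA-DM were not called in WT cells at any time, although HLA-DMB was called lower with library weights at 12 h (-1.35, adjusted p = 0.0457) and 24 h (-1.78, adjusted p = 0.00677) and in a fit of only the libraries compared at 24 h (-1.55, adjusted p = 0.0495). HLA-DMA, the alpha chain of the loading factor HLA-DM, read 5.32, 3.98 and 6.92 with vehicle and 4.46, 5.35 and 5.93 when stimulated in WT at 24 h, which overlap. Its WT changes were 0.83 ± 0.76, 0.51 ± 0.76 and -0.16 ± 0.76 at 6, 12 and 24 h, none called. In KO the HLA-DMA libraries at 24 h read 2.62, 3.14 and 3.26 with vehicle and 5.95, 5.57 and 6.19 when stimulated, with no overlap. HLA-DMA rose in KO by 3.06 ± 0.76, 3.39 ± 0.76 and 2.89 ± 0.76 (adjusted p = 0.00206, 8.67e-04 and 0.00328). WT vehicle replicate 3 held the highest HLA-DMA, HLA-DRB1 and CD74 vehicle value at each time.

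HLA-DMB, the beta chain of HLA-DM, read 4.32, 3.25 and 4.42 with vehicle and 2.10, 2.92 and 2.33 when stimulated in WT at 24 h, where every stimulated value was below every vehicle value and the change of -1.55 ± 0.74 was not called (adjusted p = 0.0878). In KO at 12 h it read 2.92, 4.12 and 2.66 with vehicle and 5.69, 6.02 and 4.80 when stimulated, a rise of 2.27 ± 0.74 (adjusted p = 0.0171). HLA-DMB also rose in KO at 6 h, by 2.02 ± 0.74 (adjusted p = 0.0313) with overlap between the groups, while at 24 h the value of 1.55 ± 0.74 was not called (adjusted p = 0.0997) and the groups did not overlap. That 24 h value passed with library weights (1.83, adjusted p = 0.00479) and with only the libraries compared (adjusted p = 0.0266). The 6 h call was lost with only the libraries compared (adjusted p = 0.143), without stimulated replicate 2 (1.12, adjusted p = 0.248), which read 6.34 against 3.53 and 3.77, or without vehicle replicate 1 (1.83, adjusted p = 0.0951) or vehicle replicate 3 (1.68, adjusted p = 0.126). The 12 h call of HLA-DMB was lost without stimulated replicate 2 (2.01, adjusted p = 0.0745), vehicle replicate 1 (2.11, adjusted p = 0.0594) or vehicle replicate 3 (1.98, adjusted p = 0.0754).

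HLA-DOA, the alpha chain of the HLA-DM inhibitor HLA-DO, was near 0 in all vehicle libraries (0.00 to 0.67). At 12 h the stimulated libraries read 0.90, 3.35 and 2.37 in WT and 4.75, 4.83 and 4.47 in KO. HLA-DOA rose in WT at 12 h by 1.83 ± 0.55 (adjusted p = 0.00940), a call lost without stimulated replicate 2 (1.26, adjusted p = 0.0908). The WT changes at 6 h (1.27 ± 0.55, adjusted p = 0.0711) and 24 h (0.94 ± 0.55, adjusted p = 0.166) were not called, although without stimulated replicate 1 the 6 h value was (1.75, adjusted p = 0.0261). In KO it rose by 2.30 ± 0.55, 4.50 ± 0.55 and 3.66 ± 0.55. WT replicate 1 was the low library of its group for HLA-DOA at every stimulated time.

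Counted together, 6, 8 and 7 of the 10 genes were called higher in stimulated WT cells at 6, 12 and 24 h, where 15.1%, 16.8% and 20.2% of all tested genes were. In KO cells 10, 10 and 9 were called higher, against 16.2%, 15.5% and 17.3% of all genes. None was called lower in either genotype, where 20.9%, 21.7% and 26.1% of all genes were in WT and 22.5%, 19.5% and 21.6% in KO. The median log2 change of the 10 genes was 1.81, 2.72 and 2.53 in WT and 3.63, 5.05 and 4.69 in KO, while the median over all genes lay between -0.20 and -0.08. Since 5 of these genes entered the test only because of their stimulated libraries, the counts describe the set and do not test it.

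**Figure D2:**
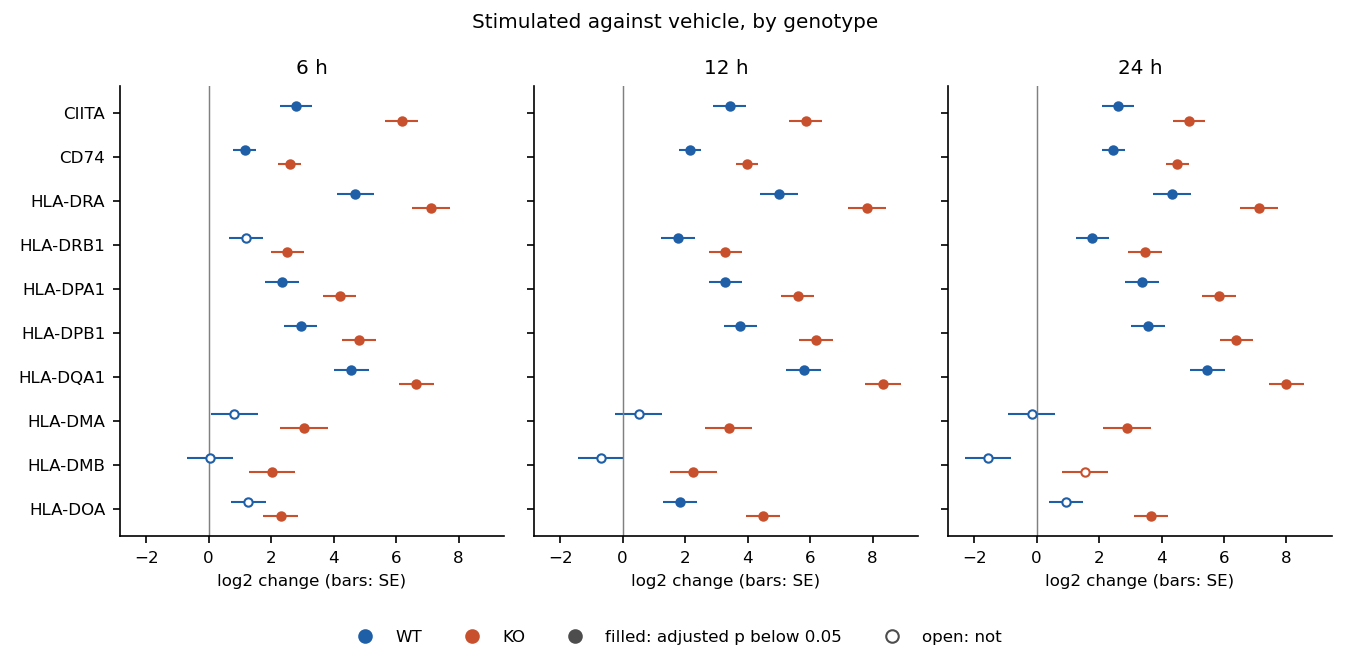
Log2 change of the 10 members (rows) between stimulated and vehicle libraries at 6, 12 and 24 h (panels), in WT (blue) and KO (orange), with standard errors as bars and filled points for adjusted p below 0.05. The KO point lies to the right of the WT point for every gene at every time, with HLA-DQA1 and HLA-DRA farthest right, and HLA-DMA and HLA-DMB between -1.55 and 0.83 in WT.

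The timing of CIITA and of its targets was then compared within stimulated cells. CIITA had its highest mean at 6 h in both genotypes. None of the 9 other genes was highest at 6 h: 6 had their highest mean at 12 h and 3 at 24 h in WT, and 5 and 4 in KO. Against vehicle of the same time, the rise of CIITA in WT was largest at 12 h (3.42) and not at 6 h (2.80). In KO it was largest at 6 h (6.17). CIITA at 24 h was 1.57 ± 0.53 log2 units below 6 h in WT (change -1.57, 2.98-fold, adjusted p = 0.0296) and 1.86 ± 0.53 below in KO (change -1.86, 3.63-fold, adjusted p = 0.00934), with no overlap in either. The changes of CIITA from 6 h to 12 h were -0.43 ± 0.53 in WT and -0.79 ± 0.53 in KO, neither called.

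The CIITA calls depended on single libraries. In WT it was no longer called without replicate 1 (-1.54, adjusted p = 0.0729) or replicate 3 (-1.29, adjusted p = 0.129) at 6 h, nor without replicate 1 (-1.59, adjusted p = 0.0601), 2 (-1.58, adjusted p = 0.0592) or 3 (-1.55, adjusted p = 0.0672) at 24 h. In KO the fall of CIITA was lost without replicate 2 at 24 h (-1.30, adjusted p = 0.0929). Without both libraries that stand apart, the WT change of CIITA was -1.55 (adjusted p = 0.0594).

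CD74 rose from 6 h to 24 h by 1.65 ± 0.36 in WT (3.13-fold, adjusted p = 0.00156) and by 2.00 ± 0.36 in KO (4.01-fold, adjusted p = 1.95e-04), and the later values lay above all earlier ones in both. HLA-DPA1 rose by 1.65 ± 0.54 in WT (adjusted p = 0.0258) and by 2.15 ± 0.54 in KO (adjusted p = 0.00393), and HLA-DPB1 by 1.58 ± 0.54 (adjusted p = 0.0332) and 2.03 ± 0.54 (adjusted p = 0.00621). In KO HLA-DQA1 (1.57 ± 0.56, adjusted p = 0.0376) and HLA-DOA (1.51 ± 0.55, adjusted p = 0.0402) rose as well. HLA-DRA changed by 0.98 ± 0.60 in WT and 1.00 ± 0.60 in KO, not called in either, and HLA-DMB by -0.02 ± 0.74 and 0.04 ± 0.74. Thus 3 genes were called higher and 1 lower in WT, against 10.8% and 12.0% of all genes, and 5 higher and 1 lower in KO, against 14.5% and 13.0%. The WT calls of HLA-DPA1 and HLA-DPB1 were both lost without replicate 1 (1.53 and 1.22) or 2 (1.41 and 1.46) at 6 h or replicate 2 (1.26 and 1.24) or 3 (1.60 and 1.53) at 24 h. The KO calls of HLA-DQA1 and HLA-DOA were both lost without replicate 1 (1.27 and 1.37) or 3 (1.32 and 1.36) at 6 h or replicate 1 (1.24 and 1.00) or 3 (1.63 and 1.53) at 24 h. HLA-DQA1 passed in WT without replicate 3 at 6 h (1.81, adjusted p = 0.0370) or replicate 1 at 24 h (1.93, adjusted p = 0.0199), HLA-DRB1 in WT without replicate 3 at 6 h (1.79, adjusted p = 0.0273) and HLA-DRA in KO without replicate 2 at 24 h (1.73, adjusted p = 0.0468). With the replicate number as a block, HLA-DRB1 was also called in WT (1.25, adjusted p = 0.0468).

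The change from 6 h to 12 h was read in the same way. In KO 5 genes were called higher at 12 h than at 6 h, where 4.88% of all genes were: CD74 (1.39 ± 0.36, adjusted p = 0.0157), HLA-DPA1 (1.80 ± 0.54), HLA-DPB1 (1.74 ± 0.54), HLA-DQA1 (1.87 ± 0.56) and HLA-DOA (2.34 ± 0.55, adjusted p = 0.00766). HLA-DRA in KO changed by 1.50 ± 0.60 (adjusted p = 0.107) with no overlap between the groups. In WT none was called (1.72% of all genes were called higher), 5 had an unadjusted p below 0.05, and with the replicate number as a block CD74 (1.24, adjusted p = 0.0201), HLA-DPA1 (1.60, adjusted p = 0.0434) and HLA-DPB1 (1.74, adjusted p = 0.0257) passed. Without WT replicate 1 at 12 h, 4 genes were called in WT, and 1 without WT replicate 3 at 6 h. The KO count fell to 1 without replicate 1 at 6 h or replicate 3 at 12 h, and to 2 without replicate 3 at 6 h or replicate 1 or 2 at 12 h. The change from 6 h to 24 h did not differ detectably between genotypes for any of the 10 genes (limma, 0 called, 1 with unadjusted p below 0.05, differences from -0.47 to 1.61, 0.683% of all genes called).

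**Figure D3:**
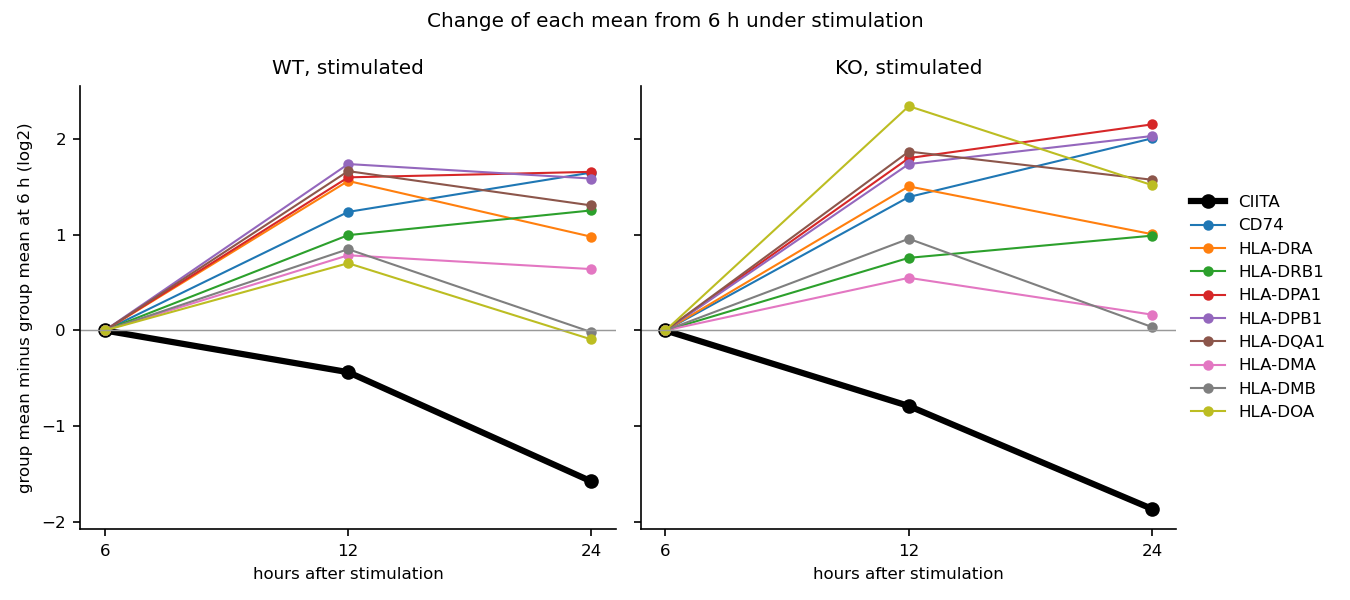
Mean log2 level of each member in stimulated cells at 6, 12 and 24 h (horizontal axis) minus its mean at 6 h (vertical axis), in WT (left) and KO (right), with CIITA as the thick black line. CIITA descends to -1.57 in WT and -1.86 in KO at 24 h, while the other 9 lines are all above 0 at 12 h.

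Vehicle cells set the base for this. Between 6 h and 24 h of vehicle, none of the 10 genes was called in WT or in KO (limma, 4 and 0 with unadjusted p below 0.05), where 0.0895% and 0.834% of all genes were called in either direction. These shares are of calls, and that at an unadjusted p below 0.05 was not counted. The changes ran from -1.38 to 1.63 in WT and from -0.57 to 0.99 in KO, with the lowest value in both being CIITA. In WT vehicle libraries CIITA read 3.20, 2.14 and 4.35 at 6 h and 2.07, 1.58 and 1.90 at 24 h, so its mean was lower at 24 h without stimulation too (-1.38 ± 0.53, adjusted p = 0.578).

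Subtracting the CIITA value of each library from every gene sets the targets against their coactivator. HLA-DRA minus CIITA in stimulated WT libraries was 0.86, 1.28 and 1.69 at 6 h. It was 3.20, 3.45 and 3.17 in the 12 h libraries and 3.67, 3.76 and 4.06 in those of 24 h. In stimulated KO libraries the 6 h values were -0.18, 1.93 and 1.17, the 12 h values 2.98, 3.33 and 3.48 and the 24 h values 3.81, 3.51 and 4.19. The 12 h and 24 h values of HLA-DRA were above all 6 h values in each genotype, and WT and KO values overlapped at every time. Without stimulation, too, mean HLA-DRA rose relative to CIITA. In WT vehicle cells HLA-DRA went from 2.61 at 6 h to 3.96 at 24 h and CIITA from 3.23 to 1.85. In KO vehicle cells HLA-DRA went from 1.87 to 2.86 and CIITA from 1.83 to 1.26. In vehicle cells the change relative to CIITA was not tested, and all of these means except the 3.96 of HLA-DRA were below the filter value. Relative to CIITA, 7 of the 9 genes were called higher at 24 h than at 6 h in stimulated WT and 9 of 9 in stimulated KO. So were 48.4% and 64.4% of all genes, a share that includes the lower CIITA level at 24 h. The median relative change of the 9 genes was 2.83 in stimulated WT and 3.38 in stimulated KO, against 1.60 and 1.93 over all genes.

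The same subtraction put the genotypes side by side. Relative to CIITA none of the 9 genes was called between KO and WT under stimulation at 6, 12 or 24 h (limma, 0 called, with 2, 0 and 1 having an unadjusted p below 0.05). At these times 74.6%, 49.9% and 52.3% of all genes were called lower in KO relative to CIITA. The median of the 9 genes was -0.72, -0.16 and 0.01, where that of all genes was -2.00, -1.59 and -1.63. With standard errors of 0.53 to 0.84, the values ran from -1.27 to 0.11 at 6 h, from -1.15 to 0.85 at 12 h and from -1.25 to 0.76 at 24 h. With library weights 7, 2 and 3 of the 9 were called at 6, 12 and 24 h, and with a pseudocount of 5 the counts were 3, 1 and 1. Without stimulated KO replicate 2 of the time in question, 4 of the 9 were called at 6 h and 1 at 24 h, and without both libraries that stand apart 3 were called at 6 h.

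Within groups, the slope of each gene on CIITA was positive for all 9 genes in the 18 stimulated libraries and for all 9 in the 18 vehicle libraries. The median slope was 0.46 in both, against 0.03 and -0.00 over all genes. None passed the test in either set (limma, 0 called), and 0.00% of all genes did. An unadjusted p below 0.05 was reached by 2 of the 9 in stimulated and by 5 in vehicle libraries, and the share of all genes reaching it was not counted.

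In vehicle cells the KO means were the lower ones for 9, 10 and 10 of the 10 genes at 6, 12 and 24 h, without a call. The log2 of the summed level of the 14 macrophage markers was also lower in vehicle KO, at 12.79 to 13.42, 12.93 to 13.56 and 13.40 to 13.56, than in vehicle WT, at 14.06 to 14.14, 14.09 to 14.79 and 14.40 to 15.31, and its part in these differences was not tested. CD74 at 24 h read 8.16, 8.08 and 9.19 in WT and 7.67, 7.97 and 7.33 in KO, which do not overlap, with a difference of -0.82 ± 0.36 (adjusted p = 0.270). HLA-DMA at 24 h read 5.32, 3.98 and 6.92 in WT and 2.62, 3.14 and 3.26 in KO, a difference of -2.40 ± 0.76 (adjusted p = 0.0762, and 0.0191 with the replicate number as a block). None of the 10 genes was called at 6, 12 or 24 h (limma, with 1, 2 and 3 at an unadjusted p below 0.05), where 8.19%, 5.24% and 3.98% of all genes were called in either direction. How many of all genes had an unadjusted p below 0.05 was not counted. Median differences were -0.60, -0.91 and -0.91, against -0.05, -0.02 and -0.02 over all genes. At 24 h 6 genes had every KO value below every WT value, as did 12.2% of all genes. Without WT vehicle replicate 2, CIITA passed at 6 h (-1.95, adjusted p = 0.0317) and HLA-DMA at 12 h (-2.85, adjusted p = 0.0304) and 24 h (-3.11, adjusted p = 0.0278).

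Under stimulation all 10 genes had higher means in KO than in WT at all 3 times. CIITA at 6 h read 6.09, 5.40 and 6.60 in WT and 8.37, 7.57 and 8.08 in KO, with no overlap, and was 1.98 ± 0.53 higher (3.93-fold, adjusted p = 0.0161). It was the only member called at 6 h, where 4.86% of all genes were called higher. CIITA at 12 h was 1.62 ± 0.53 higher (3.08-fold, adjusted p = 0.0851) and at 24 h 1.69 ± 0.53 higher (3.22-fold, adjusted p = 0.0529, and 0.0360 with the replicate number as a block), in both cases with no overlap. The 6 h call of CIITA was lost without WT replicate 1 (2.00, adjusted p = 0.0524), WT replicate 2 (1.66, adjusted p = 0.0966) or KO replicate 1 (1.79, adjusted p = 0.0590), and at 24 h CIITA passed without KO replicate 2 (2.25, adjusted p = 0.0126). Without WT replicate 3 at 6 h, HLA-DRA (2.16, adjusted p = 0.0396) and HLA-DPB1 (1.94, adjusted p = 0.0360) passed too, and HLA-DMB did so without KO replicate 1 (2.59, adjusted p = 0.0470).

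At 12 h HLA-DOA was called, at 4.75, 4.83 and 4.47 in KO against 0.90, 3.35 and 2.37 in WT (2.47 ± 0.55, adjusted p = 0.00868), where 1.78% of all genes were called higher. Of the 6 libraries in which HLA-DOA reached the filter value, 5 were stimulated KO and 1 stimulated WT, so that it entered this test through the group in which it was high. In the fit of every row, with no filter, its adjusted p was 0.00822 at 12 h and 0.00763 at 24 h. HLA-DOA lost that call without WT replicate 1 (1.82, adjusted p = 0.109) or KO replicate 1 (2.44, adjusted p = 0.0510), and HLA-DMB gained one without WT replicate 2 (2.81, adjusted p = 0.0419). At both 12 h and 24 h 8 of the 10 genes, all but HLA-DRB1 and HLA-DMA, had every KO value above every WT value, as did 12.6% and 12.1% of all genes.

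At 24 h 4 genes were called higher in KO, where 3.41% of all genes were, and 1 of the 4 is HLA-DOA with the limit just given. CD74 read 10.75, 10.86 and 11.19 in WT and 12.56, 11.40 and 12.51 in KO (1.22 ± 0.36, 2.33-fold, adjusted p = 0.0436). HLA-DPA1 read 4.61, 6.28 and 5.61 in WT and 7.61, 6.80 and 7.36 in KO (1.75 ± 0.54, 3.37-fold, adjusted p = 0.0496). HLA-DPB1 was 1.91 ± 0.54 higher (3.75-fold, adjusted p = 0.0339) and HLA-DOA 2.45 ± 0.55 higher (adjusted p = 0.00806). With the replicate number as a block 7 genes passed, CIITA, HLA-DRA (1.70, adjusted p = 0.0444) and HLA-DQA1 (1.64, adjusted p = 0.0415) in addition. The count was 0 without WT replicate 1 or KO replicate 1, 1 without WT replicate 3 or KO replicate 3, and 2 without both libraries that stand apart, among which stimulated WT replicate 3 belongs to this comparison. CD74 also missed the threshold without WT replicate 2 (1.19, adjusted p = 0.0700). HLA-DRA passed without KO replicate 2 (2.42, adjusted p = 0.0164) and HLA-DQA1 without WT replicate 2 (2.11, adjusted p = 0.0300). All 4 calls were lost in a limma fit of only the libraries compared. There the adjusted p was 0.25 for CD74, 0.226 for HLA-DPA1, 0.187 for HLA-DPB1 and 0.244 for HLA-DOA. Against a log2 change of 1 none passed either. With no filter HLA-DPA1 missed the threshold (adjusted p = 0.0502), as did CD74 with no mean-variance trend (adjusted p = 0.0552).

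The difference of HLA-DRB1 between genotypes under stimulation was 0.70 ± 0.53, 0.47 ± 0.53 and 0.44 ± 0.53 at 6, 12 and 24 h, none called. That of HLA-DMB was 2.08 ± 0.74, 2.19 ± 0.74 and 2.13 ± 0.74 (adjusted p = 0.0773, 0.102 and 0.0824), with no overlap at any of the 3 times. The median difference over the 10 genes was 1.31, 1.52 and 1.69, against -0.03, 0.03 and 0.06 over all genes. Of 7 markers of B cells, which also carry class II molecules, 5 were in the table, and the log2 of their summed level was 6.86 to 7.60, 7.00 to 7.84 and 6.56 to 7.49 in stimulated WT and 8.15 to 8.70, 8.08 to 8.80 and 7.56 to 8.23 in stimulated KO. Between genotypes 2, 0 and 1 of the 5 were called higher in stimulated KO at 6, 12 and 24 h. So were 4.86%, 1.78% and 3.41% of all genes. PAX5, the B cell transcription factor, had a mean of 6.91 in WT and 7.78 in KO at 6 h, and none of the 5 was at 0 in any stimulated library. The log2 of the summed level of the 14 macrophage markers ran from 13.56 to 14.38 in stimulated WT and from 12.61 to 13.39 in stimulated KO libraries. Of 9 dendritic cell markers 6 were in the table, and the log2 of their summed level was 7.00 to 7.38 in stimulated WT and 7.50 to 7.92 in stimulated KO at 6 h, with overlap at 12 and 24 h. The log2 of the sum of 5 markers listed as epithelial and stromal was 8.35 to 8.92 in stimulated WT and 6.70 to 6.90 in stimulated KO at 6 h. That sum includes PECAM1, which ran from 5.96 to 9.19 over all libraries, so it does not measure epithelial or stromal content alone. The part of these markers in the class II difference was not tested.

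**Figure D4:**
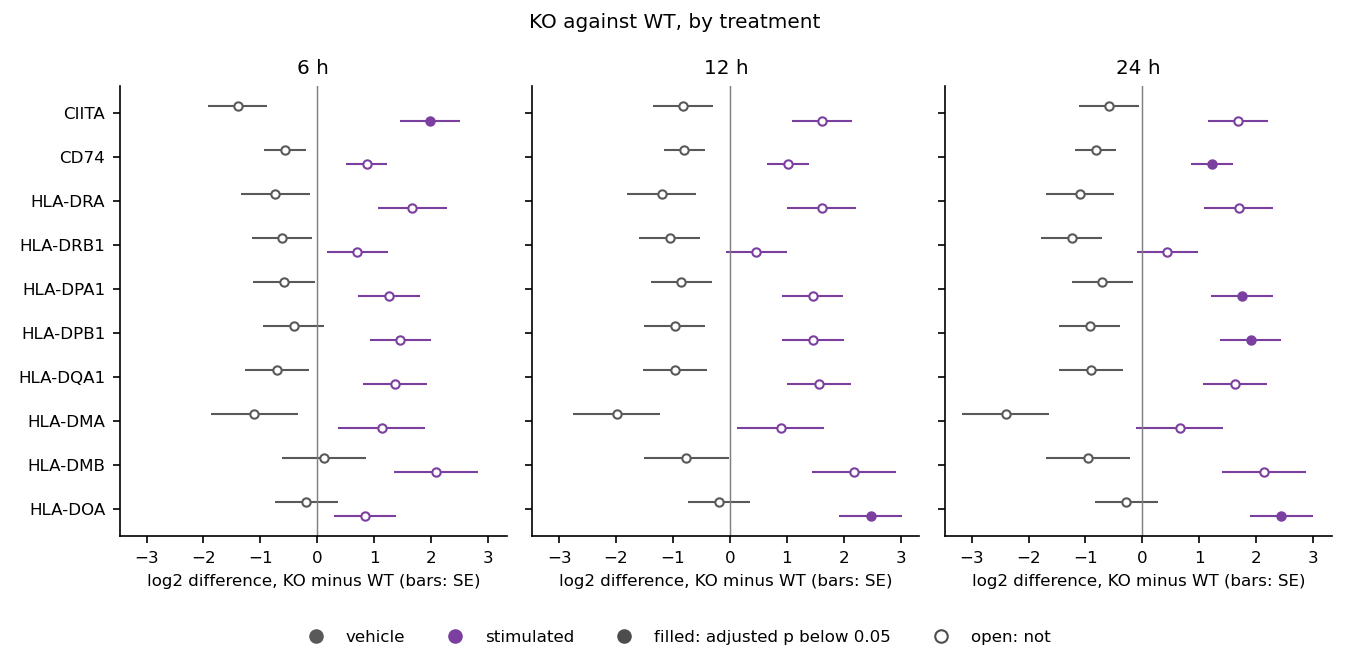
Log2 difference between KO and WT (horizontal axis, positive where KO was higher) of the 10 members at 6, 12 and 24 h (panels), in vehicle (grey) and stimulated cells (purple), with standard errors as bars and filled points for adjusted p below 0.05. Stimulated points are all above 0 and vehicle points below 0 with the exception of HLA-DMB at 6 h (0.12).

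The response to stimulation itself was compared between genotypes by the interaction term. For CIITA at 6 h the response in KO exceeded that in WT by 3.38 ± 0.74 log2 units (adjusted p = 0.0345). It was the 1 member called, where 0.283% of all genes were called in that direction. At 12 h the term for CIITA was 2.44 ± 0.74 (adjusted p = 0.244) and at 24 h 2.28 ± 0.74 (adjusted p = 0.169). All 10 terms were positive at each time, with medians of 1.92, 2.49 and 2.63 against -0.00, 0.06 and 0.08 over all genes, and 7, 9 and 10 had an unadjusted p below 0.05. The share of all genes at that unadjusted p was not counted. CIITA and its targets need not vary independently, so their agreeing signs are not separate results. None was called by limma at 12 or 24 h, where 0.0612% and 0.174% of all genes were called higher. The smallest adjusted p at 24 h was that of CD74 (2.04 ± 0.52, adjusted p = 0.0664).

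The CIITA interaction at 6 h lost its call without any 1 of 8 of its 12 libraries. These were vehicle replicates 1 (3.39, adjusted p = 0.0777) and 3 (2.82, adjusted p = 0.108) and stimulated replicates 1 (3.41, adjusted p = 0.0703) and 2 (3.06, adjusted p = 0.0911) of WT. In KO they were vehicle replicates 1 (3.21, adjusted p = 0.112) and 3 (3.25, adjusted p = 0.0900) and stimulated replicates 1 (3.20, adjusted p = 0.0941) and 3 (3.34, adjusted p = 0.0612). At 24 h CD74 (2.42, adjusted p = 0.0209), HLA-DRA (3.52, adjusted p = 0.0363) and HLA-DOA (3.22, adjusted p = 0.0435) passed without stimulated KO replicate 2, and HLA-DOA without stimulated WT replicate 2 (3.22, adjusted p = 0.0481).

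Other class II genes outside the 10 were measured in 8 of 10 cases. In KO 7, 8 and 8 of these 8 were called higher with stimulation at 6, 12 and 24 h, and in WT 5, 7 and 5, none lower. Of all genes 16.2%, 15.5% and 17.3% were called higher in KO and 15.1%, 16.8% and 20.2% in WT, and 19.5% to 26.1% lower. HLA-DQB1, the beta partner of HLA-DQA1, rose in WT by 2.42 ± 0.53, 2.81 ± 0.53 and 1.94 ± 0.53, with KO rises of 3.69 ± 0.53, 4.37 ± 0.53 and 3.27 ± 0.53. HLA-DOB, the beta partner of HLA-DOA, rose in WT by 3.69 ± 0.56, 3.59 ± 0.56 and 3.17 ± 0.56, with KO rises of 5.21 ± 0.56, 4.44 ± 0.56 and 4.29 ± 0.56. HLA-DRB5 rose in WT by 1.79, 2.38 and 2.90, with KO rises of 2.39, 4.00 and 4.58, again with reads that may be shared between HLA-DRB copies. Between genotypes under stimulation 2 of the 8 were called at 6 h, HLA-DQB1 (2.02 ± 0.53 higher in KO, adjusted p = 0.0148) and HLA-DQB2 (2.95 ± 0.70 higher, adjusted p = 0.00770), and none at 12 or 24 h (limma, 1 with unadjusted p below 0.05 at each). Of all genes 4.86%, 1.78% and 3.41% were called higher in stimulated KO at 6, 12 and 24 h.

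Signalling genes that lead from the interferon-gamma receptor to CIITA were mostly called higher. Of 14, 9, 9 and 10 were called higher and 2 lower with stimulation in WT at 6, 12 and 24 h, and 8, 11 and 11 higher and 2 lower in KO, where 15.1% to 20.2% of all genes were higher and 19.5% to 26.1% lower. SOCS1, the feedback inhibitor of JAK kinases, rose by 6.25 ± 0.55 at 6 h in WT and by 6.61 ± 0.55 in KO. IRF1, an interferon-induced transcription factor, rose at 6 h by 4.20 ± 0.24 in WT and 3.87 ± 0.24 in KO, and the kinase JAK2 by 3.72 ± 0.52 and 3.68 ± 0.52. IFNGR1, the ligand-binding receptor chain, fell by 1.40 in WT and by 2.07 in KO (changes of -1.40 and -2.07). Between genotypes under stimulation none of the 14 was called at any time (limma, with 3, 1 and 1 at an unadjusted p below 0.05). Over all genes 8.71%, 3.45% and 5.87% were called in either direction at 6, 12 and 24 h. No call among 14 genes is near these shares. At 6 h the KO minus WT differences were 0.49 ± 0.24 for IRF1 and -0.20 ± 0.52 for JAK2, which belong to the fixed set of named genes. The part of these 14 genes in the CIITA difference was not tested.

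Of 15 genes of the promoter complex and its coactivators, RFX5, the subunit of RFX that binds the X box, rose with stimulation in WT by 1.51 ± 0.20, 1.42 ± 0.20 and 1.19 ± 0.20, with KO rises of 2.00 ± 0.20, 1.82 ± 0.20 and 1.56 ± 0.20. RFX5 was also higher in stimulated KO than in stimulated WT cells at 6 h (0.87 ± 0.20, adjusted p = 0.00483), 12 h (0.85 ± 0.20, adjusted p = 0.0114) and 24 h (0.96 ± 0.20, adjusted p = 0.00348). NFYC, a subunit of the Y box factor NF-Y, was higher in stimulated KO at 12 h (0.66 ± 0.18, adjusted p = 0.0327) and 24 h (0.80 ± 0.18, adjusted p = 0.00744). No other gene of the 15 was called between genotypes under stimulation, and the interaction term of RFX5 was 0.49 ± 0.28 at 6 h (adjusted p = 0.711). The share of all genes called between stimulated genotypes in either direction was 8.71%, 3.45% and 5.87% at 6, 12 and 24 h. With stimulation 2, 1 and 4 of the 15 were called higher and 2, 3 and 3 lower in WT, and 4, 3 and 2 higher and 6, 3 and 3 lower in KO. Shares over all genes were 15.1% to 20.2% higher and 20.9% to 26.1% lower in WT, and 15.5% to 17.3% higher and 19.5% to 22.5% lower in KO.

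Among 16 regulators of CIITA and class II, 5 were called higher at each time in each genotype, and 5, 5 and 6 lower, beside 15.1% to 20.2% of all genes higher and 19.5% to 26.1% lower over both genotypes. IRF4, an interferon regulatory factor of activated macrophages and B cells, rose by 5.42 ± 0.65 in WT and 6.37 ± 0.65 in KO at 6 h. NLRP12 was lower by 3.24 ± 0.52 and 2.92 ± 0.52 (changes of -3.24 and -2.92). IRF8, a myeloid and B cell transcription factor, was higher in stimulated KO than in stimulated WT cells at 6 h (1.37 ± 0.36, adjusted p = 0.0161) and 24 h (1.20 ± 0.36, adjusted p = 0.0478). FBXO11, a ubiquitin ligase subunit that acts on CIITA protein, was lower in KO at 6 h (-1.13 ± 0.33, adjusted p = 0.0288). At 12 h none of the 16 was called between genotypes under stimulation (limma, 1 with unadjusted p below 0.05). Over all genes, 8.71%, 3.45% and 5.87% were called in either direction between stimulated genotypes at 6, 12 and 24 h.

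The endosomal genes that supply class II molecules with peptide were read next. Of 12 measured, 3, 7 and 7 were called higher with stimulation at 6, 12 and 24 h in WT and 5, 7 and 9 in KO, with at most 1 lower. Of all genes 15.1%, 16.8% and 20.2% were called higher in WT and 16.2%, 15.5% and 17.3% in KO, so that the 3 of 12 in WT at 6 h lie near that share. CTSS, the protease that finishes the removal of the invariant chain, rose in WT by 1.56 ± 0.28, 1.68 ± 0.28 and 1.41 ± 0.28, with KO rises of 1.88 ± 0.28, 2.31 ± 0.28 and 2.11 ± 0.28. IFI30, the thiol reductase of the endosome, changed by -0.41 ± 0.37 at 6 h in WT (not called) and rose by 0.90 ± 0.37 at 24 h, and in KO the change was 0.06 ± 0.37 at 6 h (not called) and a rise of 2.00 ± 0.37 at 24 h. Between genotypes 2 lysosomal cathepsins were called lower at all 3 times: CTSL was 1.61 ± 0.34, 2.08 ± 0.34 and 2.21 ± 0.34 lower in stimulated KO (changes of -1.61, -2.08 and -2.21) and CTSB 1.20 ± 0.33, 1.75 ± 0.33 and 1.94 ± 0.33 lower (changes of -1.20, -1.75 and -1.94). CTSC, another lysosomal cathepsin, was higher in stimulated KO at 6 h (0.99 ± 0.21, adjusted p = 0.00260). Over all genes, 3.86%, 1.68% and 2.46% were called lower in stimulated KO at 6, 12 and 24 h, and 4.86% higher at 6 h. CTSH was lower in vehicle KO cells (-2.14 ± 0.35 at 24 h, adjusted p = 3.96e-04) and its response at 24 h exceeded that of WT by 2.16 ± 0.50 (adjusted p = 0.0474), the 1 call among the interaction terms of these 12 genes over the 3 times. Interaction terms of all genes were called in either direction in 0.452%, 0.16% and 0.433% at 6, 12 and 24 h.

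Of 5 genes that set the turnover of class II molecules at the surface, CD83, which opposes their ubiquitination, rose in WT by 6.06 ± 0.46, 6.22 ± 0.46 and 5.32 ± 0.46, with KO rises of 6.32 ± 0.46, 7.24 ± 0.46 and 7.70 ± 0.46. MARCHF1, the ubiquitin ligase that removes class II molecules from the surface, was lower in stimulated KO than in stimulated WT cells at 6 h (-2.87 ± 0.82, adjusted p = 0.0254) and not at 12 h (0.41 ± 0.82) or 24 h (0.28 ± 0.82). The tetraspanin CD9 was lower in stimulated KO at 6 h (-1.52 ± 0.44, adjusted p = 0.0279) and 12 h (-1.75 ± 0.44, adjusted p = 0.0214). Over all genes 3.86% and 1.68% were called lower in stimulated KO at these times.

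MHC class I genes and their coactivator NLRC5, measured for contrast, were called higher with stimulation in 15 of 16 cases at each time in WT and in 14, 15 and 15 in KO. The shares of all genes called higher were 15.1%, 16.8% and 20.2% in WT and 16.2%, 15.5% and 17.3% in KO. NLRC5 rose in WT by 2.38 ± 0.27, 2.37 ± 0.27 and 2.69 ± 0.27, with KO rises of 3.01 ± 0.27, 3.13 ± 0.27 and 3.02 ± 0.27. Its change from 6 h to 24 h was 0.47 ± 0.27 in WT and 0.21 ± 0.27 in KO, not called. The median KO minus WT difference over these 16 genes under stimulation was 0.29, -0.10 and -0.04, beside 1.31, 1.52 and 1.69 for the 10 class II genes, and whether these medians differ was not tested. The 1 class I gene called between genotypes under stimulation was HLA-F at 6 h (1.63 ± 0.35 higher in KO, adjusted p = 0.00352), where 4.86% of all genes were called higher.

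Over the 12 group means, the correlation of the members with CIITA ran from 0.48 for HLA-DMB and 0.76 for HLA-DMA to 0.91 for HLA-DRA and 0.92 for HLA-DQA1. Their correlation with HLA-DRA ran from 0.55 for HLA-DMB to 0.99 for HLA-DQA1 and HLA-DPB1. The 12 points share treatments and control groups, so these values are a description. Outside the 10 genes, the protein-coding genes most like CIITA were TESK2 (0.989), CLDN16 (0.984), FXYD6 (0.982), TNFRSF18 (0.980) and C1QTNF1 (0.979). C1QTNF1 had means of 5.97, 5.95 and 4.82 in stimulated WT and 7.96, 6.90 and 5.93 in stimulated KO, highest at 6 h like CIITA. Those most like HLA-DRA were ALAS1 (0.992), ZNF300 (0.991), EPB41L4A (0.990), MEFV (0.989) and STAMBPL1 (0.988). ALAS1, the first enzyme of haem synthesis, had means of 10.30, 11.24 and 10.31 in stimulated WT and 10.75, 11.72 and 11.30 in stimulated KO, highest at 12 h like HLA-DRA.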

How the data were processed

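The authors deposited 1 table of log2 values for 36 libraries, 1 row per Entrez Gene identifier. Per the submitters' processing notes, cutadapt 1.9.1 and GSNAP were among the tools and GRCh37.p5 was the build. How reads were counted, whether by strand, and how values were offset and normalized is not given in the sources used here. One of these log2 columns, headed by the number 1, is deposited in the same unit as the other columns but is recorded as other. Symbols came from the RefSeq gene table (20609 rows matched).

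The filter kept 21232 of 21599 rows, those with a log2 value of 3.32 (10 on the linear scale) or more in 3 or more libraries. All 10 members passed. A model with 12 group means was fitted in R 4.3.3 with limma 3.58.1, using moderated variances with a mean-variance trend and Benjamini-Hochberg adjustment over all genes in each comparison. Calls needed an adjusted p below 0.05. Wherever genes at an unadjusted p below 0.05 are counted, the share of all genes at that threshold was not counted. Linear folds are printed only where both means reached the filter. The CIITA-relative and slope fits used the same model after subtraction of CIITA, or with CIITA as covariate.

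The members, gene lists, tests and named genes were chosen with earlier results of these data known. Named genes are the members, ACOD1, up to 4 called genes with the largest change per list and comparison described, a fixed set that includes IRF1 and JAK2, and the 5 most like CIITA and HLA-DRA. IFNGR1, PAX5, CD68 and PECAM1 were named after their values were seen. Some genes of these lists are not reported here by name. In simulated data for stimulated WT 24 h against 6 h, 65 of 100 genes shifted by log2 2 and 23 of 100 shifted by log2 1 were recovered. Replicate numbers come from the labels, and in 14 of 18 comparisons of 2 groups every like-numbered pair correlated over 0.1 after removal of group means (-0.150 to 0.589 over all pairs). The alternatives tried were leaving out each library, the replicate number as a block, library weights, fits of the compared libraries alone, testing against a log2 change of 1, other normalizations (median centring, quantile), no trend, a pseudocount of 5, and either no filter or a stricter one. Leaving out both libraries that stand apart was added after seeing the data. Figures used Python with matplotlib.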

Additional observations from a re-analysis of the deposited data

Results flagged for a closer look

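The response of CIITA at 6 h differed between genotypes by a test of the difference itself. The rise with stimulation was 2.80 ± 0.53 in WT and 6.17 ± 0.53 in KO, and the interaction term was 3.38 ± 0.74 (limma adjusted p = 0.0345). Of the 12 libraries behind it, leaving out 1 at a time gave terms between 2.82 and 3.92, and the call was lost in 8 of the 12 cases (adjusted p = 0.0612 to 0.112). It was also lost in a fit of only the libraries compared (adjusted p = 0.187) and against a log2 change of 1 (adjusted p = 0.646). The vehicle means of CIITA at 6 h, 3.23 in WT and 1.83 in KO, were both below the filter value, and their uncalled difference is part of the term.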

How the results depend on the processing

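Over 208 results on single members, 88 of them called, no called result changed direction under any alternative. Quantile normalization, median centring, no trend and no filter changed 1, 0, 2 and 1 of these calls. Library weights raised the counts of members called to 3, 5 and 2 for KO against WT in vehicle (6, 12, 24 h), 6, 8 and 8 when stimulated, and 8, 10 and 10 for the interaction. They gave 5 for 12 h against 6 h in WT, 8 in KO, 1 for the difference between genotypes in 24 h against 6 h, 1 for KO vehicle, 7, 2 and 3 for KO against WT relative to CIITA and 4 for the slopes in stimulated libraries. A pseudocount of 5 gave 2, 2 and 7 for KO against WT stimulated, 2 for WT 12 h against 6 h and 3, 1 and 1 relative to CIITA. A fit of only the libraries compared gave 0, 0 and 0 for KO against WT stimulated, 0 for the interaction at 6 h, 0 for KO 12 h against 6 h and 1 for 24 h against 6 h in WT and in KO. A minimum log2 change of 1 gave 0 for all 7 of these. The replicate block gave 1 for KO against WT in vehicle at 24 h, 3 and 7 when stimulated at 6 and 24 h, 2 for the interaction at 24 h, 3 for WT 12 h against 6 h and 1 relative to CIITA at 6 h, and changed no other count by over 1.5 times. The like-numbered libraries do not all pair in KO against WT stimulated at 6 h, where the block added HLA-DRA (adjusted p = 0.0420) and HLA-DPB1 (adjusted p = 0.0413). Without both libraries that stand apart the counts were 2 for KO against WT stimulated at 24 h, 3 for WT 12 h against 6 h and 3 relative to CIITA at 6 h. The stricter filter tested fewer members and gave 1 for WT 12 h against 6 h and 1 relative to CIITA at 6 h.

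Leaving out each library in turn, the counts ran from 0 to 1 at each time in vehicle, from 0 to 3, 0 to 2 and 0 to 6 for KO against WT stimulated, from 0 to 1 and 0 to 3 for the interaction at 6 and 24 h, from 0 to 4 and 1 to 5 for WT 12 h and 24 h against 6 h, from 1 to 5 for KO 12 h against 6 h, and from 0 to 4 and 0 to 1 relative to CIITA at 6 and 24 h. Uncalled values that changed sign were those of HLA-DMB, HLA-DMA and HLA-DOA. With library weights HLA-DMB was -0.14 in WT at 6 h, -0.33 for KO against WT in vehicle at 6 h and 0.055 for WT 24 h against 6 h, and HLA-DMA was -0.15 in WT at 12 h. HLA-DMB was 0.044 for WT 24 h against 6 h without both libraries that stand apart and -0.038 for KO 24 h against 6 h with the pseudocount. Leaving out 1 library, stimulated against vehicle in WT ran from -0.27 to 0.44 (6 h) and -1.64 to 0.14 (12 h) for HLA-DMB and from -0.35 to 1.32 (12 h) and -0.87 to 0.60 (24 h) for HLA-DMA. KO against WT in vehicle ran from -0.40 to 0.51 (6 h) and -1.72 to 0.060 (12 h) for HLA-DMB. For 24 h against 6 h the ranges were -0.28 to 0.16 for HLA-DMB and -0.59 to 0.36 for HLA-DOA in WT, and -0.35 to 0.80 for HLA-DMA and -0.47 to 0.93 for HLA-DMB in KO. The cause of these changes was not tested. Alternatives were run for the 10 members and not for the other genes named.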
